A study of Mus musculus with 36 samples.

Results

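The 10 genes described here are the 4 fibroblast growth factor (FGF) receptor genes Fgfr1, Fgfr2, Fgfr3 and Fgfr4, and 6 genes that report on or restrain signalling through ERK: Spry1, Spry2, Spry4, Etv4, Etv5 and Dusp6. They were chosen by name, and all 10 of them were among the 19426 genes listed in either of 2 RNA-seq tables, were listed in both, and passed the filter on low values (a mean of at least 10). The study asked what TET DNA dioxygenases, enzymes that oxidize methylated cytosine, do when mouse embryonic stem cells (ESC) become neural stem cells (NSC). The compared groups were Tet triple knockout (TKO) NSC from 2 lines, wild-type (WT) NSC from 3 lines, TKO ESC from the same 2 lines and WT ESC from the same 3 lines. The lines were male, on the V6.5 mixed 129/C57BL/6 background. TKO cells carried knockouts of all 3 Tet genes, Tet1, Tet2 and Tet3, and WT cells carried none. To leave feeder cells behind, ESC were preplated for 45 minutes, then grown for 24 hours on gelatin in medium with serum and LIF. NSC were derived from the ESC lines in culture and harvested on day 6 at passage 1, so they are a culture model and not tissue from an embryo. Each library is 1 line, and the TKO spread rests on 2 of them. Promoter capture Hi-C (pcHiC), which maps the chromosome fragments that touch promoters, was available for 1 TKO and 1 WT NSC library.

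FGF receptors are receptor tyrosine kinases that pair up when FGF and heparan sulfate bind, recruit the adaptor FRS2 with GRB2 and SOS, and drive the RAS, RAF, MEK and ERK kinase chain. ERK activity switches on the transcription factor genes Etv4 and Etv5, the Sprouty inhibitors (Spry genes) and the ERK phosphatase gene Dusp6, which feed back on the chain, so their RNA is commonly read as a trace of ERK output. In ESC, FGF and ERK push cells out of the naive state. Neural stem cells in culture depend on FGF to keep dividing, and the published NSC protocol that the labels cite expands cells with basic FGF, although the labels themselves do not give the medium.

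RNA-seq values are normalized counts, that is reads per gene divided by a size factor per library. The TKO NSC libraries held 49060991 and 45838532 reads in listed genes, and all libraries lay between 41007791 and 49060991. The 2 tables were scaled separately, so TKO was compared with WT within a table, and NSC with ESC on reads scaled over all 10 libraries together. Levels are not compared between genes. As a check of the labels, Tet1, Tet2 and Tet3 were lower in TKO than in WT ESC, and Tet1 and Tet3 in TKO than in WT NSC. Tet2 had 1146 and 1555 normalized counts in TKO NSC, against 1066 to 1295 in WT NSC, and did not pass the test (adjusted p = 0.459). Reads outside a deleted stretch would still be counted, and the deleted stretch is not given in the labels. Embryonic stem and neural stem markers followed the ESC and NSC labels. From ESC to NSC, the median log2 change of embryonic stem markers was -6.53 in TKO and -8.60 in WT. For neural stem markers it was 2.46 in TKO and 3.32 in WT. Fibroblast and feeder markers, which the labels do not name, rose as well, with medians of 3.46 in TKO and 2.37 in WT. The sums of the marker lists in NSC are given with the receptors.

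The stretches of 250 bases just upstream of the annotated starts are shown for 4 members that carry the main NSC results, 3 that fell in TKO NSC and 1 that rose. They come from the RefSeq promoter table (build GRCm38.p6), are written 5′ to 3′ along the gene's strand, and have each CG dinucleotide, the site TET enzymes act on once methylated, in capitals. Fgfr2 is at chr7:130266809-130267058 on the minus strand, Fgfr4 at chr13:55152568-55152817 on the plus strand, Spry1 at chr3:37639697-37639946 on the plus strand and Dusp6 at chr10:99262981-99263230 on the plus strand.
Fgfr2: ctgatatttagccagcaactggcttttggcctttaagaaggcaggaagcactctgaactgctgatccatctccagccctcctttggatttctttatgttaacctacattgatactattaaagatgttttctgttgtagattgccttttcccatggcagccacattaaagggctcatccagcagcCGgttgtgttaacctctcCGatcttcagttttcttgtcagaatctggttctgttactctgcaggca
Fgfr4: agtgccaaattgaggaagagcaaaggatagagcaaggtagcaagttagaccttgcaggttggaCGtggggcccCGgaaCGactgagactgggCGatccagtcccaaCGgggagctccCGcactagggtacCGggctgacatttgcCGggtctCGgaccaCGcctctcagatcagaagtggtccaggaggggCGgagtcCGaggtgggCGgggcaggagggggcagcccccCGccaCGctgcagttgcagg
Spry1: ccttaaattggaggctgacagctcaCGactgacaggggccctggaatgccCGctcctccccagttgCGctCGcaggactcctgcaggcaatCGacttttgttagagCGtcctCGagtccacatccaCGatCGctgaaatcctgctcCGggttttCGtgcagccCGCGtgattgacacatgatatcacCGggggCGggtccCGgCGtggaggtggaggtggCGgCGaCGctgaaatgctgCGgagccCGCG
Dusp6: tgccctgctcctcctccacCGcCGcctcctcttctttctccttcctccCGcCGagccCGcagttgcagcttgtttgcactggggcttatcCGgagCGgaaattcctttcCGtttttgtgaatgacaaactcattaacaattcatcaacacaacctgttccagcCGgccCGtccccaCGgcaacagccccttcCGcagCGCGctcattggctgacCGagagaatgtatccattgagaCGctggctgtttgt
The Fgfr2 window held 2 CG dinucleotides, the Fgfr4 window 15, the Dusp6 window 16 and the Spry1 window 23. Over the table's 32851 windows of the same length the median was 6, with quartiles of 2 and 16. In this table the Fgfr2 window was poor in CG and the Spry1 window was rich in it. Bases downstream of the starts are not covered. The part of CG content in the changes of these genes was not tested. The table had 9 windows for 7 members, and the other windows, of Fgfr3, Spry2 and Etv5, held between 18 and 27. The letters CCGGAAG, a site form bound by ETS factors such as ETV4 and ETV5, were searched on both strands. They were in 0 of the 9 windows and in 6.91% of all windows. No entry was found for Fgfr1, Spry4 and Etv4. DNA methylation was measured in the study but is not analysed here.

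Of the 4 FGF receptors, Fgfr1, Fgfr2 and Fgfr4 fell in TKO NSC, and Fgfr3 did not pass the test. Of the 10 members, 7 passed an adjusted p of 0.05 in NSC (limma with Benjamini-Hochberg adjustment over 17744 genes), 3 higher and 4 lower. Over all genes, 37.7% were called, 18.2% higher and 19.5% lower. The groups did not overlap for 7 members, against 59.9% of all genes. The median log2 fold change was -0.91 over the 4 receptors and 0.01 over all genes tested. In these bulk samples, fewer cells of a type and less RNA per cell cannot be told apart.

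Fgfr1 (chr8:25518759-25575718) encodes an FGF receptor that neural progenitors use widely. It had 13921 and 13836 normalized counts in the TKO NSC lines, against 22986, 23618 and 22804 in the WT NSC lines. Both TKO lines were below every WT line, and lines of 1 genotype lay close together. The means were 13878 ± 60.0 (SD, n = 2) in TKO and 23136 ± 427 (SD, n = 3) in WT, a log2 fold change of -0.74 (SE 0.05, adjusted p = 1.51e-06).

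Fgfr2 (chr7:130162451-130266808), whose splice forms bind different FGFs, had 953 and 1336 normalized counts in TKO NSC. In WT NSC it had 2533, 2557 and 2109. The groups did not overlap, and the higher TKO line remained well under the lowest WT line. The log2 fold change was -1.08 (SE 0.14, adjusted p = 9.67e-05).

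Fgfr4 (chr13:55152818-55168759) was sparsely read. It had 18.4 and 22.4 normalized counts in TKO NSC, from 20 and 23 reads, against 134, 160 and 124 in WT NSC. The groups stood far apart, and the log2 fold change of -2.71 (SE 0.37, adjusted p = 0.000146) was the largest in size among the 10 members in NSC. Its mean was 20.4 ± 2.88 (SD, n = 2) in TKO and 140 ± 18.5 (SD, n = 3) in WT.

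Fgfr3 (chr5:33721724-33737068), a receptor of ventricular zone progenitors and astroglia, split the TKO lines. It had 591 and 1451 normalized counts in TKO NSC, against 990, 1358 and 930 in WT NSC. One TKO line lay below all WT lines and the other above them. The log2 fold change was -0.22 (SE 0.29, adjusted p = 0.604). It was -0.87 (adjusted p = 0.0119) without TKO replicate 2 and 0.43 (adjusted p = 0.118) without TKO replicate 1.

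Cell-type markers moved alongside the receptors. The summed normalized counts of 12 neural stem markers were 208550 to 219240 in TKO NSC and 410810 to 421860 in WT NSC, with 1 marker higher and 9 lower. The sums of 11 fibroblast and feeder markers were 168200 to 200380 in TKO NSC and 77616 to 98121 in WT NSC, with 9 higher and 1 lower. The sums of 8 embryonic stem markers were 3165 to 5950 in TKO NSC and 1155 to 1362 in WT NSC, with 5 higher. Neuron markers overlapped between genotypes, at 13166 to 13855 in TKO NSC and 12700 to 15893 in WT NSC. Primed epiblast and mesoderm markers had 4 of 8 tested higher and 1 lower, with a median log2 fold change of 1.44, while their sums were 5291 to 6267 in TKO NSC and 7108 to 7664 in WT NSC. Astro- and oligodendroglia markers had 1 of 8 higher and 3 lower, with sums of 2639 to 3039 in TKO NSC and 2908 to 4053 in WT NSC. Endoderm markers had 1 of 5 higher and 1 lower, with sums of 3009 to 3771 in TKO NSC and 3187 to 4205 in WT NSC. All of the fibroblast and feeder markers were listed in NSC, and each had a mean of at least 10 in both genotypes. The part of these cell-type differences in the members' changes was not tested.

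**Figure D1:**
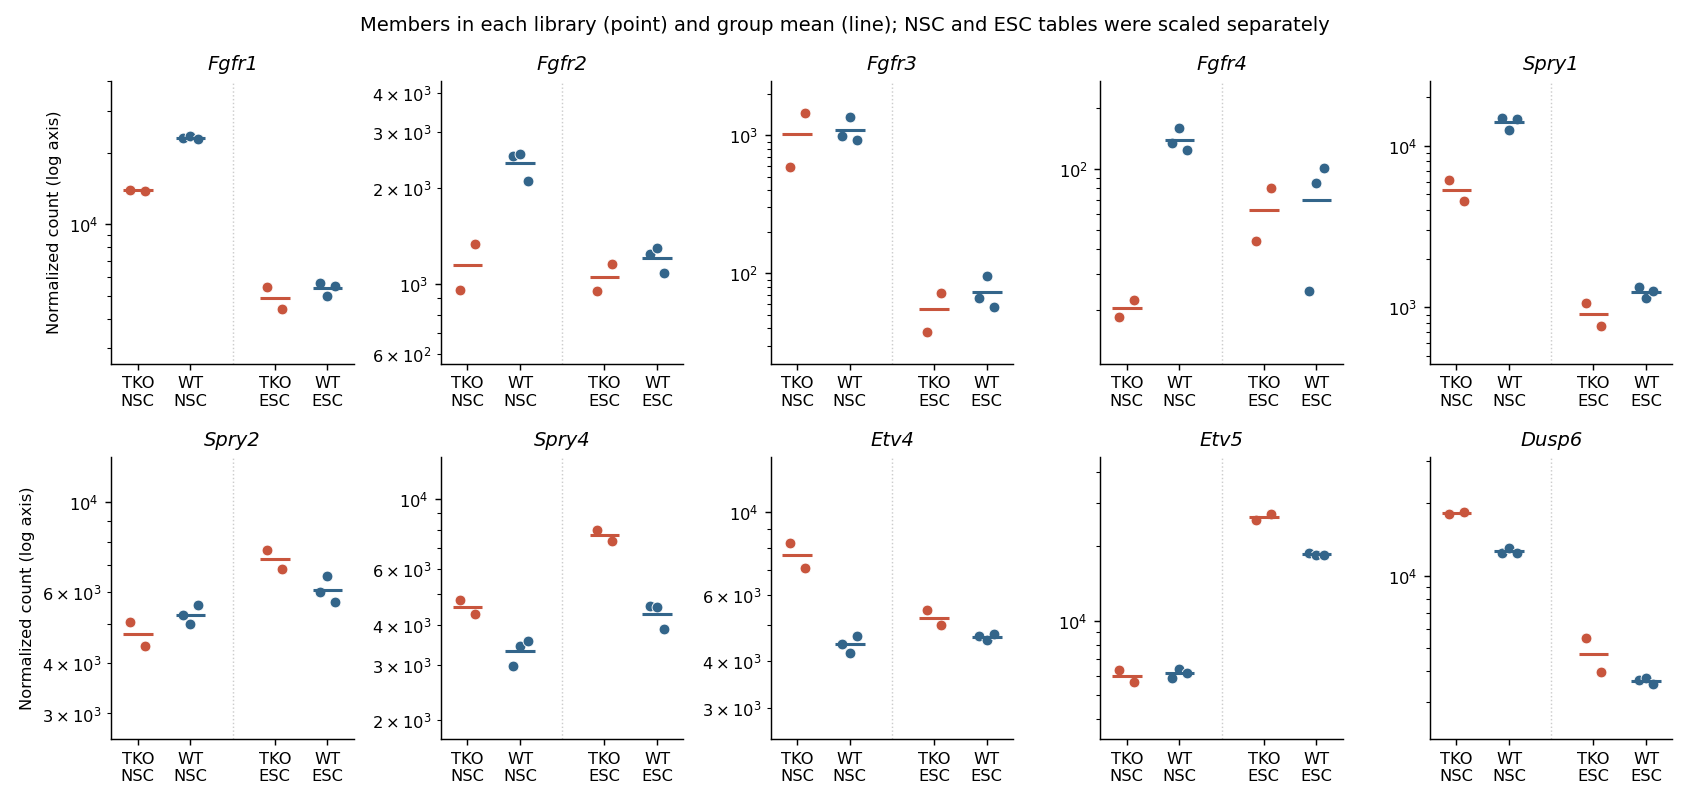
Normalized counts of the 10 members (log axis) in each library, with NSC left and ESC right in each panel and TKO left of WT. Points are libraries and lines are group means; Fgfr1, Fgfr2, Fgfr4 and Spry1 lie lower in TKO NSC than in every WT NSC library, while Spry4, Etv4 and Dusp6 lie higher.

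The feedback genes did not follow the receptors as a group in TKO NSC. Spry4, Etv4 and Dusp6 rose, Spry1 fell, and Spry2 and Etv5 did not pass the test. The median log2 fold change over these 6 genes was 0.21, against 0.01 over all genes.

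Spry1 (chr3:37639947-37644599), a Sprouty inhibitor of receptor tyrosine kinase signalling, had 6139 and 4543 normalized counts in TKO NSC. It had 14794, 12452 and 14716 in WT NSC. Both TKO lines were below every WT line, with a log2 fold change of -1.40 (SE 0.12, adjusted p = 3.60e-06).

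Spry4 (chr18:38586247-38601347), another Sprouty inhibitor, went the other way. It had 4806 and 4334 normalized counts in TKO NSC, against 2960, 3440 and 3559 in WT NSC. The groups did not overlap, and the log2 fold change was 0.46 (SE 0.09, adjusted p = 0.00188). Spry2 (chr14:105891947-105896819) had 5046 and 4398 in TKO NSC, against 5267, 4985 and 5565 in WT NSC. Its groups overlapped, with a log2 fold change of -0.16 (SE 0.08, adjusted p = 0.136).

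Dusp6 (chr10:99263231-99267489) encodes the phosphatase that removes the activating phosphates from ERK in the cytoplasm. It had 18023 and 18395 normalized counts in TKO NSC, against 12464, 13040 and 12481 in WT NSC. Lines of 1 genotype agreed closely and the groups stood apart. The log2 fold change was 0.52 (SE 0.06, adjusted p = 2.27e-05).

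Etv4 (chr11:101769747-101785310) encodes an ETS transcription factor induced by FGF signalling. It had 8247 and 7109 normalized counts in TKO NSC, against 4449, 4213 and 4671 in WT NSC. Both TKO lines lay above all WT lines, and the log2 fold change was 0.79 (SE 0.08, adjusted p = 1.63e-05). Its neighbourhood was raised as well. The 220 genes tested within 5 Mb had medians of 0.59 and 0.58 on the log2 scale in the 2 TKO NSC lines relative to the WT mean, where Etv4 itself stood at 0.89 and 0.68. Over chromosome 11 the medians were 0.53 and 0.54. When the chromosome medians of each library were set to 0, the Etv4 log2 fold change was 0.25 (adjusted p = 0.0351). Etv5 (chr16:22381313-22439570), its paralog, had 6327 and 5642 in TKO NSC, against 5890, 6405 and 6147 in WT NSC. The Etv5 groups overlapped, with a log2 fold change of -0.04 (SE 0.07, adjusted p = 0.703).

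For the other members called in NSC the neighbourhood lay closer to 0 than that of Etv4. The medians of genes within 5 Mb of Fgfr1 were -0.04 in both TKO NSC lines, and those near Fgfr4 were -0.07 in both. Those near Spry1 were -0.11 and -0.18, and those near Dusp6 were 0.13 and 0.17. Each of these 4 members moved further than its neighbourhood in both TKO lines.

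**Figure D2:**
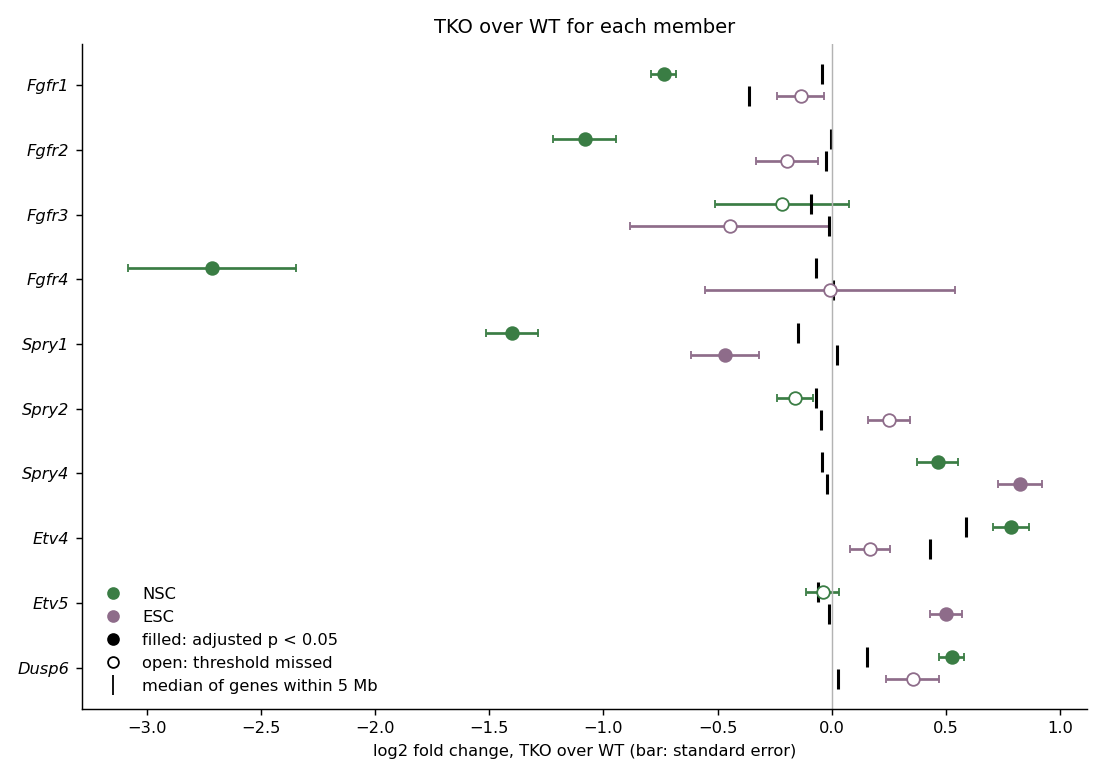
Log2 fold change of TKO over WT for each member in NSC (upper point) and ESC (lower point), with standard errors and, as black ticks, the median of genes within 5 Mb averaged over the TKO lines. Filled points passed an adjusted p of 0.05; Fgfr4 is farthest left in NSC at -2.71, and the Etv4 point at 0.79 lies beside a tick displaced from 0 in the same direction.

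In ESC the receptors did not pass the test, and the calls fell among the feedback genes. Of the 10 members, Spry4 and Etv5 rose and Spry1 fell, beside 14.3% of all genes called, 7.29% higher and 7.02% lower. The groups did not overlap for 6 members, 5 of them higher in TKO, against 43.4% of all genes. The median log2 fold change was 0.30 over the 6 feedback genes and -0.17 over the 4 receptors, against 0.01 over all genes.

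Spry4 had 7990 and 7337 normalized counts in TKO ESC, against 4601, 4544 and 3883 in WT ESC. Its TKO lines stood well above all WT lines, with a log2 fold change of 0.82 (SE 0.10, adjusted p = 4.26e-05). Etv5 had 25496 and 27033 in TKO ESC, against 18796, 18502 and 18414 in WT ESC. The Etv5 groups were also apart, with a log2 fold change of 0.50 (SE 0.07, adjusted p = 0.000237).

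Spry1 had 1061 and 762 normalized counts in TKO ESC, against 1333, 1141 and 1267 in WT ESC. The groups did not overlap, but the lines differed and the log2 fold change of -0.47 (SE 0.15) was close to the threshold at an adjusted p of 0.0453. It was lost in 7 of 13 alternatives. Without TKO replicate 2 the change was -0.23 (adjusted p = 0.469), and without TKO replicate 1 it was -0.71 (adjusted p = 0.0122). The adjusted p was 0.104 without WT replicate 1, 0.0629 without WT replicate 2 and 0.111 without WT replicate 3.

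The other feedback genes did not pass the test in ESC, although their TKO and WT lines did not overlap. Dusp6 had 5508 and 3981 normalized counts in TKO ESC, against 3687, 3758 and 3548 in WT ESC, a log2 fold change of 0.35 (SE 0.12, adjusted p = 0.0520). Its higher TKO line stood apart and its lower one lay just above the WT lines. Without TKO replicate 2 the change was 0.59 (adjusted p = 0.00637), and DESeq2 on the recovered reads gave an adjusted p of 0.0207. Spry2 had 7635 and 6833 in TKO ESC, against 5987, 6586 and 5668 in WT ESC, at 0.25 (SE 0.09, adjusted p = 0.0810). Etv4 had 5465 and 4999 in TKO ESC, against 4669, 4559 and 4732 in WT ESC, at 0.17 (SE 0.09, adjusted p = 0.237). For both genes the lower TKO line lay close above the highest WT line. The 230 genes within 5 Mb of Etv4 had medians of 0.28 and 0.57 in the TKO ESC lines, where Etv4 stood at 0.23 and 0.10. Centred on chromosome medians, Etv4 was at -0.23 (adjusted p = 0.205) and Spry2 at 0.35 (adjusted p = 0.0208).

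Among the receptors in ESC, Fgfr1 had 5421 and 4391 normalized counts in TKO, against 5655, 4986 and 5479 in WT. The groups overlapped, at a log2 fold change of -0.14 (SE 0.10, adjusted p = 0.419). Genes within 5 Mb of Fgfr1 had medians of -0.35 and -0.37 in the TKO ESC lines, so Fgfr1 was less reduced than its neighbourhood, and it was at 0.27 (adjusted p = 0.0867) with chromosome medians centred. Fgfr2 had 952 and 1153 in TKO ESC, against 1240, 1293 and 1082 in WT ESC, at -0.20 (SE 0.14, adjusted p = 0.382). The Fgfr2 groups overlapped. Fgfr3 and Fgfr4 had no more than 101 normalized counts in any ESC library, and the SE of their log2 fold changes was 0.44 and 0.55. Neither passed the test.

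Embryonic stem markers summed to 226810 to 255430 normalized counts in TKO ESC and 187430 to 208550 in WT ESC, with 5 of 8 higher. Fibroblast and feeder markers overlapped, at 32810 to 34842 in TKO ESC and 29214 to 35084 in WT ESC, with 0 of 11 called by limma. Primed epiblast and mesoderm markers summed to 2868 to 3217 in TKO ESC and 4527 to 5947 in WT ESC, with 0 of 7 tested higher and 4 lower by limma. Neuron markers summed to 11566 to 12266 in TKO ESC and 14098 to 15211 in WT ESC, with 3 of 7 lower, and endoderm markers to 425 to 546 in TKO ESC and 701 to 774 in WT ESC, with 1 of 6 lower. Neural stem markers summed to 42362 to 43555 in TKO ESC and 37187 to 39254 in WT ESC, with 2 of 12 higher and 2 lower, and astro- and oligodendroglia markers to 2202 to 2467 in TKO ESC and 1547 to 1849 in WT ESC, with 1 of 6 higher. The part of these marker differences in the ESC results was not tested.

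The TKO effect in NSC was set against that in ESC by an interaction term. It passed the threshold for 7 members, 1 higher and 6 lower, beside 20.7% of all genes, 10.9% higher and 9.8% lower. A negative value means that TKO was lower, relative to WT, in NSC than in ESC. The receptors Fgfr1, Fgfr2 and Fgfr4 had differences of -0.60 (SE 0.12, adjusted p = 0.00255), -0.89 (SE 0.21, adjusted p = 0.00874) and -2.71 (SE 0.77, adjusted p = 0.0231). The Fgfr1 difference was -0.99 with chromosome medians centred. The Fgfr4 difference lost its call without TKO replicate 1 (-3.00, adjusted p = 0.0615), without TKO replicate 2 (-2.41, adjusted p = 0.127) and without WT replicate 2 (-2.86, adjusted p = 0.0521).

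Among the feedback genes, Spry1 fell further in NSC than in ESC, by a difference of -0.93 (SE 0.20, adjusted p = 0.00529). Etv5, which rose in ESC, differed by -0.54 (SE 0.09, adjusted p = 0.00109). Etv4 differed in the other direction, by 0.62 (SE 0.11, adjusted p = 0.00144). With chromosome medians centred the Etv4 difference was 0.46 (adjusted p = 0.0393). The Spry2 difference of -0.41 (SE 0.12, adjusted p = 0.0295) lost its call without either TKO replicate, without WT replicate 1 and without WT replicate 3, with adjusted p-values of 0.0698 to 0.143. Spry4 rose in both cell types, and its difference of -0.36 (SE 0.14, adjusted p = 0.0854) was not called, although it was without WT replicate 1 (-0.48, adjusted p = 0.0265). Dusp6 differed by 0.17 (SE 0.14, adjusted p = 0.453), and by 0.42 (adjusted p = 0.0287) without TKO replicate 1. Fgfr3 differed by 0.23 (SE 0.53, adjusted p = 0.812).

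Each line was next followed as NSC and as ESC on the jointly scaled reads, with the line as a block. In the TKO lines 4 members were higher and 5 lower in NSC than in ESC, and in the WT lines 5 were higher and 4 lower. All genes were called at 69% in TKO, 34.8% higher and 34.3% lower, and at 74.5% in WT, 37.4% higher and 37.1% lower, so a call is common here. The groups did not overlap for 8 members in TKO, against 85.2% of all genes, and for 9 in WT, against 78.6%. These comparisons share libraries with those of TKO and WT. Scaling by equal totals per library in place of the median of ratios shifted the median gene up by 0.40 in TKO and 0.33 in WT (log2, NSC over ESC). It called 7003 genes higher and 3784 lower in TKO, against 5346 and 5270 with the median of ratios, and 7140 higher and 4492 lower in WT, against 5756 and 5703. Among the members it called 5 higher and 4 lower in TKO, and 6 higher and 4 lower in WT. The changes below use the median of ratios.

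Fgfr1 had 11918 and 11768 jointly scaled reads in TKO NSC, against 6410 and 5134 in TKO ESC. In the WT lines it had 19840, 20347 and 19649 in NSC, against 6706, 5869 and 6429 in ESC. It was higher in NSC in all 5 lines, by 1.05 (SE 0.09, adjusted p = 4.77e-07) in TKO and 1.66 (SE 0.07, adjusted p = 6.01e-10) in WT on the log2 scale. WT NSC stood highest and TKO NSC next, while the ESC genotypes overlapped. Over chromosome 8 the log2 medians relative to the WT mean were -0.39 and -0.41 in TKO ESC, against -0.01 and -0.04 in TKO NSC. The part of this shift in the TKO change was not tested.

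Fgfr2 moved in opposite directions in the genotypes. It had 816 and 1136 jointly scaled reads in TKO NSC, against 1126 and 1349 in TKO ESC. In the WT lines it had 2186, 2203 and 1817 in NSC, against 1470, 1522 and 1270 in ESC. NSC was lower than ESC within both TKO lines, although the TKO groups overlapped, by -0.36 (SE 0.12, adjusted p = 0.0180), and higher within all 3 WT lines, by 0.54 (SE 0.10, adjusted p = 0.000241). The TKO decrease lost its call without the line block (adjusted p = 0.0634) and without TKO replicate 1 (-0.25, adjusted p = 0.218), and was 0.04 (adjusted p = 0.784) with equal totals, where the WT increase was 0.87. The interaction given above tests this difference and does not depend on the scaling between tables.

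Fgfr3 was the receptor with the largest rise in NSC. It had 506 and 1234 jointly scaled reads in TKO NSC, against 44.6 and 84.3 in TKO ESC. In the WT lines it had 855, 1170 and 801 in NSC, against 79.2, 112 and 67.3 in ESC. Every NSC library was above every ESC library, and the genotypes overlapped within each cell type. The log2 change was 3.66 (SE 0.26, adjusted p = 6.09e-08) in TKO and 3.45 (SE 0.21, adjusted p = 9.73e-09) in WT. The line with the lower Fgfr3 among TKO NSC was also the lower among TKO ESC, and the log2 changes of the TKO lines were 3.47 and 3.86.

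Fgfr4 had 15.7 and 19.1 jointly scaled reads in TKO NSC, against 52.0 and 94.4 in TKO ESC. In the WT lines it had 116, 138 and 107 in NSC, against 29.4, 101 and 118 in ESC. TKO NSC stood below all other libraries. WT ESC overlapped both TKO ESC and WT NSC, which did not overlap each other. The log2 change was -1.96 (SE 0.56, adjusted p = 0.00757) in TKO, with -1.66 (adjusted p = 0.0911) without TKO replicate 2. It was 0.75 (SE 0.46, adjusted p = 0.155) in WT, and 1.08 (adjusted p = 0.0469) with equal totals.

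**Figure D3:**
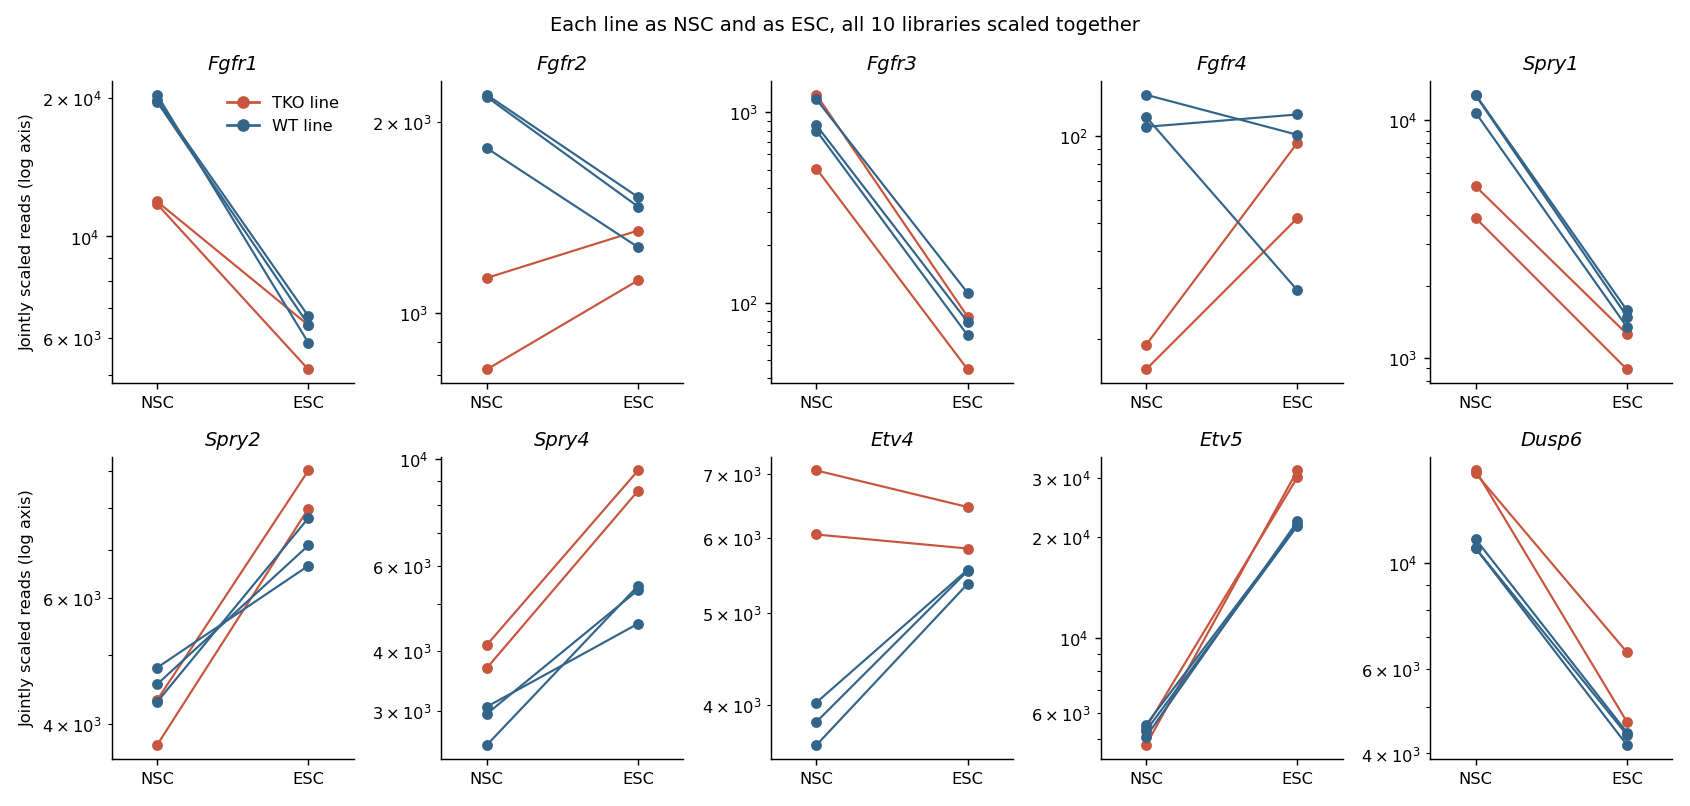
Jointly scaled reads (log axis) of each member in each line as NSC (left) and ESC (right), with 1 connected pair per line. Fgfr1, Fgfr3, Spry1 and Dusp6 lie higher in NSC in all 5 lines and Spry2, Spry4 and Etv5 lower, while for Fgfr2 both TKO lines slope against the 3 WT lines.

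Among the feedback genes, Spry1 and Dusp6 rose and Spry2, Spry4 and Etv5 fell in NSC relative to ESC in both genotypes. Spry1 had 5256 and 3864 jointly scaled reads in TKO NSC, against 1255 and 891 in TKO ESC, and 10727 to 12770 in WT NSC, against 1343 to 1580 in WT ESC. None of its 4 groups overlapped. The log2 change of Spry1 was 2.09 (SE 0.09, adjusted p = 9.26e-10) in TKO and 3.03 (SE 0.07, adjusted p = 4.50e-12) in WT.

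Dusp6 had 15430 and 15646 jointly scaled reads in TKO NSC, against 6513 and 4655 in TKO ESC, and 10754 to 11233 in WT NSC, against 4164 to 4423 in WT ESC. Its groups ran in the order TKO NSC, WT NSC, TKO ESC and WT ESC without overlap. The log2 change was 1.50 (SE 0.11, adjusted p = 5.99e-08) in TKO and 1.34 (SE 0.09, adjusted p = 1.54e-08) in WT.

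Etv5 ran opposite to Dusp6. It had 5417 and 4799 jointly scaled reads in TKO NSC, against 30150 and 31609 in TKO ESC, and 5084 to 5517 in WT NSC, against 21606 to 22290 in WT ESC. The NSC genotypes overlapped and the ESC genotypes did not. The log2 change was -2.60 (SE 0.08, adjusted p = 1.01e-10) in TKO and -2.05 (SE 0.07, adjusted p = 4.30e-11) in WT.

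Spry4 had 4115 and 3686 jointly scaled reads in TKO NSC, against 9449 and 8579 in TKO ESC, and 2555 to 3066 in WT NSC, against 4556 to 5457 in WT ESC. TKO ESC stood highest and WT NSC lowest, with no overlap among the groups. Its log2 change was -1.21 (SE 0.11, adjusted p = 7.55e-07) in TKO and -0.84 (SE 0.09, adjusted p = 2.50e-06) in WT, where equal totals gave -0.51. Spry2 changed by -1.08 (SE 0.10, adjusted p = 5.32e-07) in TKO and -0.66 (SE 0.08, adjusted p = 6.18e-06) in WT, and by -0.68 and -0.33 with equal totals.

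Etv4 had 7061 and 6046 jointly scaled reads in TKO NSC, against 6462 and 5845 in TKO ESC, and overlapped between them. In the WT lines it had 3840, 3630 and 4025 in NSC, against 5537, 5367 and 5553 in ESC, and all 3 lines were lower in NSC. The log2 change was 0.09 (SE 0.08, adjusted p = 0.357) in TKO and -0.52 (SE 0.07, adjusted p = 1.27e-05) in WT. With equal totals these were 0.48 (adjusted p = 0.000172) and -0.19 (adjusted p = 0.0217). Over chromosome 11 the log2 medians relative to the WT mean were 0.26 and 0.53 in TKO ESC, against 0.53 and 0.54 in TKO NSC. The part of this shift in the TKO change of Etv4 was not tested.

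As a description, the genes whose log2 jointly scaled reads ran most like each receptor over the 10 libraries were sought among 12493 genes with a mean of at least 100. For Fgfr1 they were Spred1 (Pearson r = 0.996), Gnai2 (r = 0.996) and Knstrn (r = 0.995). For Fgfr2 they were Ckap2l (r = 0.958), Ssx2ip (r = 0.950) and Tmem231 (r = 0.949). For Fgfr3 they were Eda (r = 0.989), Tmem30a (r = 0.989) and Trp53inp2 (r = 0.989). For Fgfr4 they were H2bc4 (r = 0.979), H2-K1 (r = 0.952) and Calml4 (r = 0.922). The libraries share lines and fall into NSC and ESC, so the points are not independent. Spred1 encodes a Sprouty-related inhibitor of RAS and ERK signalling and is on the list of other feedback genes.

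The other pathway lists held calls in both directions in TKO NSC, to be read beside the 18.2% of all genes called higher and the 19.5% called lower. Of 28 other ERK feedback and target genes, 9 rose and 10 fell, with a median log2 fold change of -0.02. The named ones were Dusp2, Dusp9 and Ccnd1. Dusp2, a nuclear ERK phosphatase gene, averaged 101 ± 38.5 normalized counts in TKO NSC and 5.44 ± 2.99 in WT NSC (SD, n = 2 and n = 3), a log2 fold change of 4.07 (SE 0.72, adjusted p = 0.000989). Dusp9, another ERK phosphatase gene, rose by 2.41 (SE 0.19, adjusted p = 2.41e-06). Ccnd1, the cyclin D1 gene that growth factors induce, averaged 5223 ± 5.14 in TKO NSC and 24464 ± 1784 in WT NSC, a log2 fold change of -2.23 (SE 0.07, adjusted p = 2.88e-09).

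Of 12 tested co-receptor and receptor-like genes, 4 rose and 4 fell in TKO NSC, with a median of 0.09. Ncam1, a neural adhesion molecule that binds FGF receptors, had a log2 fold change of -1.28 (SE 0.09, adjusted p = 1.12e-06). The heparan sulfate carriers Sdc4 and Gpc1 changed by -1.16 (SE 0.09, adjusted p = 3.59e-06) and -1.06 (SE 0.07, adjusted p = 7.42e-07). Of 15 ligand genes 3 rose and 4 fell, with a median of 0.45, above 0 although the 3 largest changes were falls, in Fgf17 (-3.39, adjusted p = 1.24e-05), Fgf15 (-2.97, adjusted p = 2.27e-05) and Fgf18 (-2.40, adjusted p = 1.44e-06). Of 11 adaptor genes 2 rose and 3 fell, and of 15 genes from RAS to ERK 3 rose and 3 fell. Among these, Grb2 (0.60, adjusted p = 2.23e-05) and Ksr1 (0.75, adjusted p = 0.000101) lie on chromosome 11, where the medians of genes within 5 Mb were 0.55 and 0.56 near Grb2 and 0.53 and 0.56 near Ksr1. The part of these regional shifts in the changes of the genes was not tested.

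Of 20 other receptor tyrosine kinases, 6 rose and 8 fell in TKO NSC, with a median of -0.08. Erbb4, a neuregulin receptor gene, changed by -2.83 (SE 0.21, adjusted p = 2.00e-06) and Kdr, a VEGF receptor gene, by -2.51 (SE 0.18, adjusted p = 1.60e-06). Flt1, another VEGF receptor gene, changed by 2.48 (SE 0.21, adjusted p = 5.02e-06).

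In TKO ESC the lists are to be read beside the 7.29% of all genes called higher and the 7.02% called lower. Of the 28 other feedback and target genes, 3 rose and 8 fell, with a median of -0.13. The named ones were Ccnd1 (-0.83, adjusted p = 1.56e-05), Dusp4 (-0.77, adjusted p = 0.000353) and Nf1 (0.75, adjusted p = 0.00159). Dusp4, an ERK phosphatase gene on chromosome 8, had neighbourhood medians of -0.41 and -0.32, and Nf1, a RAS inhibitor gene on chromosome 11, of 0.24 and 0.57. Of 14 ligand genes 0 rose and 4 fell by limma, led by Fgf8 (-2.66, adjusted p = 1.20e-05), Fgf15 (-1.88, adjusted p = 2.82e-05) and Fgf5 (-1.41, adjusted p = 0.000457). Of 15 genes from RAS to ERK, 3 rose and 2 fell. Of 13 co-receptor genes 0 rose by limma and Gpc1 (-0.57, adjusted p = 0.00579) and Gpc3 (-0.46, adjusted p = 0.00366) fell. Of 11 adaptor genes, Grb2 rose (0.60, adjusted p = 0.000607) and Gab1, on chromosome 8, fell (-0.31, adjusted p = 0.0499). The neighbourhood medians were 0.30 and 0.53 near Grb2, which itself stood at 0.47 and 0.73, and -0.41 and -0.47 near Gab1, which stood at -0.35 and -0.27. Of 19 other receptor tyrosine kinases 5 rose and 1 fell, among them Flt1 (-1.33, adjusted p = 0.000691), Ret (1.22, adjusted p = 0.0124) and Erbb3 (1.05, adjusted p = 2.11e-05).

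**Figure D4:**
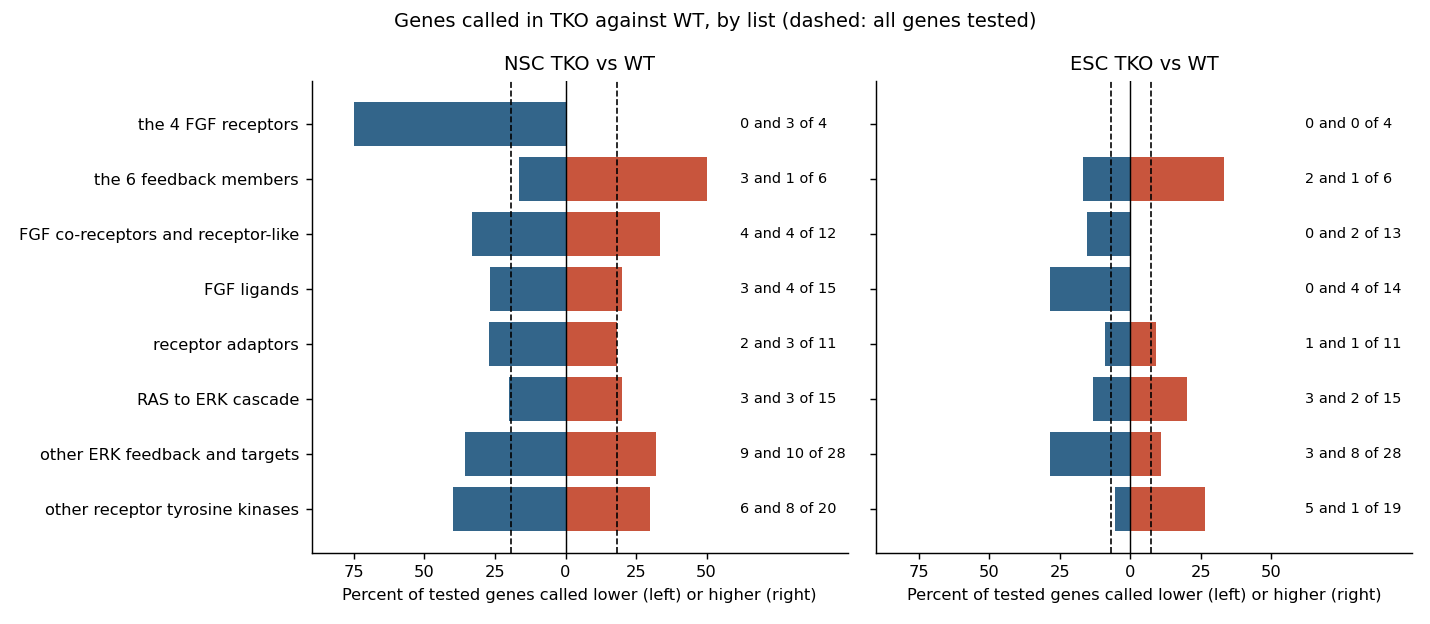
Percent of tested genes called lower (left, blue) and higher (right, red) in TKO against WT for the members and 6 pathway lists, in NSC and ESC, with the count of higher and lower genes at the right and dashed lines for all genes tested. In NSC 3 of the 4 receptors were lower, while 9 of 28 other feedback and target genes were higher and 10 lower.

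The pcHiC loop lists held 58145 loops in TKO NSC and 59754 in WT NSC, each with the authors' score, which was at least 5. With 1 library per genotype there is no test and no replicate check. Loops were assigned to a member when a fragment held its annotated start, or either end of the gene where its strand was not known (Fgfr1, Spry4 and Etv4). The members had 43 loops in TKO NSC and 56 in WT NSC, of which 16 joined the same 2 fragments in both. Fewer loops in TKO were listed for 7 members and more for 2, beside 48.4% and 37.1% of the 13364 genes with a loop in either list. At least 2-fold fewer were listed for 2 members, Fgfr1 and Spry4, against 28.7% of these genes, and at least 2-fold more for Etv4, against 20.7%. For these members loops at either end of the gene were counted, so their counts are not of promoter loops alone.

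Fgfr2 had 0 listed loops in either genotype, so its fall has no loop values beside it. A contact that is not listed is not shown to be absent. Fgfr1 had 1 loop in TKO NSC and 2 in WT NSC, all listed from the fragment of Tacc1 at chr8:25252160-25257411. The loop to the fragment at the end of Fgfr1 with the lower coordinate was at -264 kb in both, with a score of 12.6 in TKO and 6.09 in WT. The loop to the other end of the gene, at -321 kb and with a score of 14.4, was listed in WT only.

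Fgfr4 had 2 loops in TKO NSC and 3 in WT NSC, and none was shared. Their scores, 5.33 and 5.69 in TKO and 5.37 to 6.48 in WT, lay near the minimum. Fgfr3 had 12 loops in TKO NSC and 13 in WT NSC, the most of the members in both. Of these, 7 were shared, all within 100 kb upstream. One of the 7 joined Fgfr3 to the fragment holding the starts of Tacc3 and Tmem129 at -62.0 kb, with a score of 11.8 in TKO and 7.71 in WT.

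Spry1 had 5 loops in TKO NSC and 6 in WT NSC, and none joined the same fragments in both. The best WT loop, with a score of 14.3, reached -221 kb to the fragment with the starts of Nudt6 and Spata5. The best TKO loop, with a score of 8.83, reached 355 kb. Spry2 had 5 loops in TKO NSC and 4 in WT NSC, with 1 shared at -396 kb and with scores of 6.08 in TKO and 6.24 in WT.

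Spry4 had 2 loops in TKO NSC and 9 in WT NSC, and both TKO loops were among the WT loops. One reached 330 kb to the fragment that holds the start of Fgf1, an FGF ligand gene, with scores of 6.39 in TKO and 6.29 in WT. The other reached 201 kb, with scores of 8.27 in TKO and 7.50 in WT. The 7 loops listed in WT alone had scores of no more than 7.79. Those at 191, 196 and 206 kb went to fragments in an unbroken row with the shared one at 201 kb. Loops to neighbouring fragments were counted singly, so the counts are not of separate contacts. Fewer loops thus stood beside a higher Spry4 RNA level in TKO NSC.

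Dusp6 had 6 loops in TKO NSC and 11 in WT NSC, of which 4 were shared. The strongest in both reached 316 kb, with a score of 11.4 in TKO and 13.7 in WT. Here too fewer loops stood beside more RNA in TKO. The other called members with loops went the other way. Fgfr1, Fgfr4 and Spry1 had fewer loops and less RNA in TKO NSC, and Etv4 had more of both. The counts were close, at 1 against 2 for Fgfr1, 2 against 3 for Fgfr4 and 5 against 6 for Spry1. For Fgfr1 the loop at the lower-coordinate end was listed in both genotypes, and the count differed only at the other end. Etv5 had 4 loops in TKO NSC and 6 in WT NSC, and the strongest in both, at 419 kb, reached the fragment with the starts of Tbccd1 and Dnajb11 with scores of 9.84 in TKO and 7.63 in WT.

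Etv4, like Spry2, had more loops in TKO than in WT. It had 6 loops in TKO NSC and 2 in WT NSC, with none on the same pair of fragments and 1 within 10 kb of each other. The TKO loops included one to the fragment with the starts of Dusp3 and Cfap97d1 at 200 kb, with a score of 10.7. Chromosome 11 as a whole had 9357 loops in TKO NSC and 5866 in WT NSC, a ratio of 1.60. The ratio was 1.22 on chromosome 6 and between 0.79 and 0.96 on each other autosome and X. It was 0.79 on chromosome 3 (Spry1), 0.83 on chromosome 8 (Fgfr1), 0.87 on chromosome 10 (Dusp6) and 0.89 on chromosome 18 (Spry4). The part of these chromosome-wide differences in the loops of the members was not tested.

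**Figure D5:**
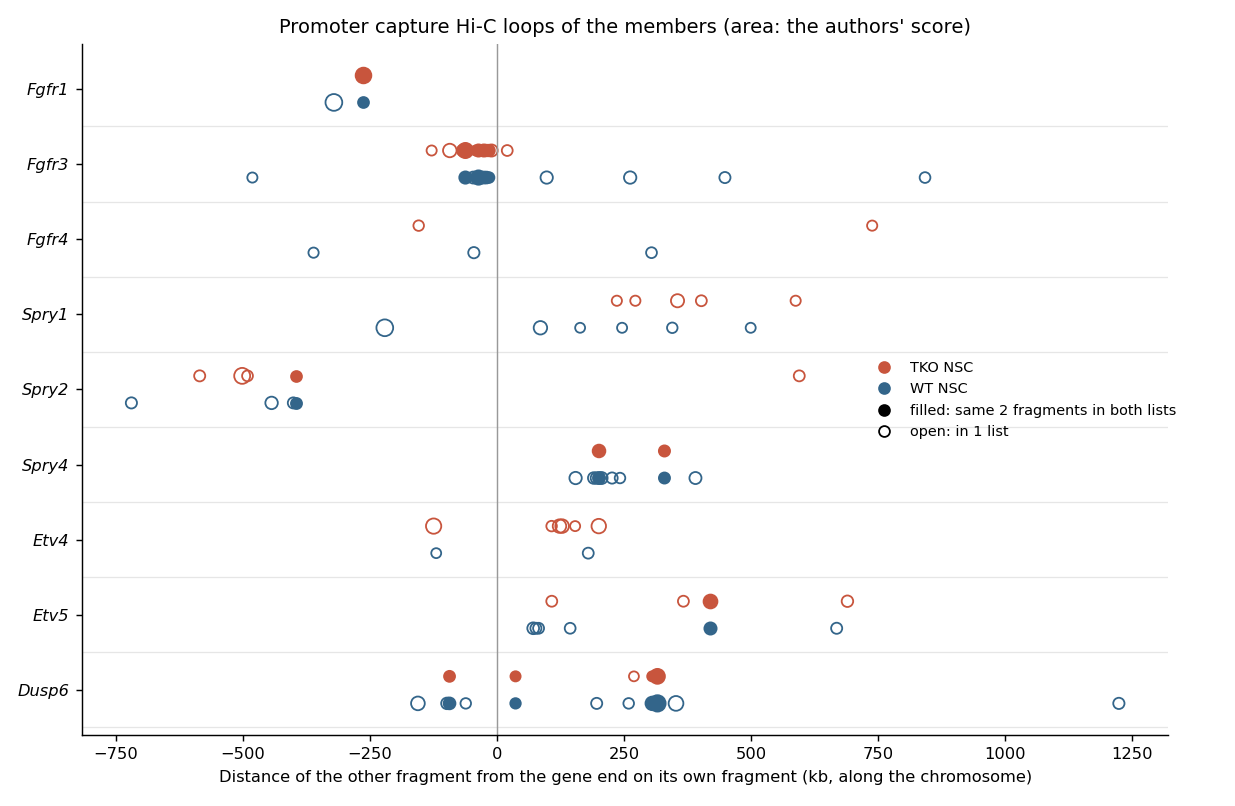
Distance in kb along the chromosome from the gene end on its fragment to the other fragment of each pcHiC loop, for the 9 members with loops, TKO above WT in each row. Area follows the authors' score and filled points mark loops listed in both genotypes; Fgfr3 has 7 shared loops close to its start, and Spry4 has 2 loops in TKO against 9 in WT.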

How the data were processed

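The members and the gene lists were chosen with earlier results of these data known. RNA-seq values were deposited as signal, that is counts normalized by the authors' DESeq2 size factors, in 1 table per cell type. Per the submitters' processing notes, reads were processed on mm10 with tools that include STAR 2.7.3a, Trim Galore 0.6.5, DESeq2 1.40.2 and featureCounts. No source names a strand setting for the counting, and a gene and its antisense partner therefore cannot be told apart. Dividing each value by its library's step gave whole reads for 100% of values (tolerance 1e-06). Most low values were even, so both mates of a pair appear to have been counted. The pcHiC files hold loops with a score given by the authors, on mm10; no source used here names the loop caller.

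TKO was compared with WT within each table by limma 3.58.1 (trend, two-sided) on log2(value + 1), after dropping genes whose mean over the fitted libraries was under 10, with Benjamini-Hochberg adjustment over all genes tested and a threshold of 0.05. Fold changes on this scale understate the change of low genes. The interaction used all 10 libraries and the 15381 genes in both tables. NSC was compared with ESC on recovered reads scaled by the median of ratios, with the line as a block, since the labels give both cell types of a line the same code. The deviations of the 2 libraries of a line correlated at between -0.03 and 0.03. Separate lines are stated by the design text, and no source says whether they share a founder clone. The p-values rest on the spread between libraries of these lines, with each gene's variance drawn toward that of genes at a similar level. Since each library is its own line within a cell type, the spread of lines and of libraries cannot be told apart.

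Named genes were all 10 members, the up to 3 genes of each other list with the largest absolute log2 fold change among those called, the 3 genes most correlated with each receptor, and the Tet genes. Some genes that this rule names are not reported here. Gene positions came from the RefSeq table of GRCm38.p6 (17657 genes matched by symbol, 69 by synonym, 1700 not matched). On simulated data for TKO against WT in NSC, the procedure recovered 78% of 2-fold and 99% of 4-fold changes among 17091 genes, with 6 false calls. Only 200 genes were changed there, drawn from those above a minimum mean. The simulated spread followed the level of a gene alone, and no chromosome-wide shift was included. These figures hold for those settings and were not tested for data with as many changes as here. The alternatives were pseudocounts of 0.5 and 5, no filter, edgeR 4.0.16 quasi-likelihood and DESeq2 1.42.0 on recovered reads, equal totals, centring on chromosome medians, replicate blocks and leaving out each replicate. Loop alternatives were score minimums of 7 and 10, any overlap with the gene, and a 10 kb window for shared loops. Equal totals for NSC against ESC was added after seeing the data. R 4.3.3 and Python 3.11.15 were used. The WGBS and the CUT&Tag libraries are not analysed here.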

Additional observations from a re-analysis of the deposited data

Results flagged for a closer look

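The TKO effect, as a log2 fold change of TKO over WT, differed between NSC and ESC by the interaction test (limma, Benjamini-Hochberg adjusted p under 0.05) for 7 members. TKO was lower relative to WT in NSC than in ESC for Fgfr1 (a difference of -0.60), Fgfr2 (-0.89), Fgfr4 (-2.71), Spry1 (-0.93), Spry2 (-0.41) and Etv5 (-0.54). It was higher in NSC than in ESC for Etv4 (0.62, and 0.46 with chromosome medians centred). The same test called 20.7% of all genes. The Fgfr4 and Spry2 differences lost their calls when single libraries were left out.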

How the results depend on the processing

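Leaving out 1 replicate in turn gave 5117 to 5881 genes called in NSC (6698 with all), 1108 to 2302 in ESC (2437 with all), 2024 to 2646 for the interaction (3177 with all), 9021 to 10797 for NSC over ESC in TKO and 10600 to 11431 in WT. The lowest ESC count, 1108, came without TKO replicate 2, and the lowest interaction count, 2024, without TKO replicate 1; fewer samples were fitted. Members called ran from 7 to 8 in NSC, 2 to 3 in ESC and 5 to 7 for the interaction. Of 590 values of single members under the alternatives, 551 kept their direction and side of the threshold, 17 lost a call, 9 gained one and 13 changed sign. The 551 include values that could hardly change. For NSC over ESC, leaving out a TKO line could not change the WT estimates, and the reverse held too. Dropping the filter left the interaction and the NSC over ESC fits as they were. The sign changes were of values not called with all replicates and the planned scaling, except Fgfr2 for NSC over ESC in TKO, at 0.040 with equal totals. In ESC, Fgfr1 was at 0.27 and Etv4 at -0.23 with chromosome medians centred, and Fgfr4 at 0.36 with the replicate block. Without single replicates in ESC, Fgfr1 ran from -0.29 to 0.015, Fgfr3 from -0.91 to 0.011 and Fgfr4 from -0.63 to 0.42. In NSC, Etv5 was at 0.00033 with equal totals, and without single replicates it ran from -0.12 to 0.042 and Fgfr3 from -0.87 to 0.43. The Dusp6 interaction ran from -0.078 to 0.42. The cause of these changes was not tested. The replicate block on TKO and WT numbers 1 and 2 called 1912 genes and 2 members in ESC (Spry1 was lost) and 6275 genes and 7 members in NSC. Those numbers belong to different lines. Deviations of same-numbered libraries correlated at between -0.02 and 0.01, and those of libraries that share a line at between -0.03 and 0.03. These correlations therefore cannot show what same-numbered libraries share. The line as a replicate block in the interaction called 2930 genes and 7 members. Without a replicate block, NSC over ESC gave 10798 genes and 8 members in TKO and 11584 genes and 9 members in WT. With a loop score of at least 7 the members had 16 loops in TKO and 22 in WT, and with at least 10 they had 6 in TKO and 5 in WT, so the lower TKO total did not hold at the highest minimum. Fgfr4 rested on 20 to 148 reads a library, and Fgfr3 in ESC on 36 to 95.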

Other observations

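Genes that act with the receptors were compared between NSC and ESC, where 34.8% of all genes were called higher and 34.3% lower in TKO, and 37.4% higher and 37.1% lower in WT. Of 12 tested co-receptor and receptor-like genes, 10 were higher and 1 lower in NSC than in ESC in TKO (median log2 change 2.41), and 11 were higher and 0 lower by limma in WT (median 2.56), against medians of -0.004 in TKO and -0.002 in WT over all genes. Flrt2, which encodes a membrane protein that binds FGF receptors, changed by 5.74 (SE 0.28) in TKO and 5.31 (SE 0.23) in WT. Gab1, a docking adaptor gene, changed by -2.24 (SE 0.09) in TKO and -2.55 (SE 0.07) in WT. It lies on chromosome 8, whose shift in TKO ESC is given with Fgfr1. Phlda1, an ERK target gene, changed by 3.25 (SE 0.16) in TKO and 3.48 (SE 0.13) in WT. Of 19 other receptor tyrosine kinases, 12 were higher and 3 lower in TKO, and 14 higher and 4 lower in WT. Scaling by equal totals raises such values by 0.40 in TKO and 0.33 in WT at the median gene.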
